A study of Arabidopsis thaliana with 6 samples.

Results

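Of the 5218 peaks that a HID1 pull-down from glutaraldehyde-fixed Arabidopsis seeds gave on the chromosome arms, 1037 had their midpoint in no annotated gene or pseudogene body but within 1 kb of a protein-coding gene. These 1037 regions, referred to as glutaraldehyde flank peaks, are described here. They were chosen by the position of called peaks in 1 library, so the share of peaks that lie in flanks is a description and was not tested. They make up 19.9% of the arm peaks and come from a list of 6306 peaks. The same rule applied to formaldehyde-fixed seeds gave 249 formaldehyde flank peaks, 8.40% of 2964 arm peaks, from a list of 4557. The arms are all nuclear sequence outside approximate pericentromeric intervals, which run from 11.5 to 17.7 Mb on chromosome 1, 1.1 to 7.2 Mb on chromosome 2, 10.3 to 17.3 Mb on chromosome 3, 1.5 to 6.3 Mb on chromosome 4 and 9 to 16 Mb on chromosome 5.

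All samples were seeds of the Col-0 ecotype, a wild type, given 5 min of red light to activate phytochrome B and then 48 h of darkness. One library came from seeds fixed with 1% glutaraldehyde for 20 min, a cross-link the labels call non-reversible, and 1 from seeds fixed with 1% formaldehyde for 20 min, the reversible cross-link. Both were captured with biotinylated antisense DNA probes along HID1. The 2 mock libraries, made with unlabelled probes, and the 2 input libraries are not used here. With 1 library for each cross-linker, cross-linker and library cannot be told apart, no difference between them was tested, and the intervals below cover counting error only. Neighbouring peaks are not independent, and the read depth of either library is unknown from the peak lists.

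HID1 is a noncoding RNA known from seedling development in red light. The red light receptor phytochrome B promotes germination by lowering abscisic acid (ABA), the dormancy hormone, and raising gibberellin. The assay, ChIRP (chromatin isolation by RNA purification), pulls an RNA out of fixed chromatin together with the DNA near it. The flanks of a plant gene hold its promoter on one side and the sequence beyond its transcription end on the other. The gene table used here gives no strand, so a flank peak could not be placed before or after its gene. The score of a peak is the authors' value from the peak caller, a p-value on a scale of 10 times its negative log10, and it was used to rank peaks within a library.

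Glutaraldehyde peaks lay in flanks about as often as flank sequence occurs on the arms, and formaldehyde peaks less often. Flank sequence made up 21.1% of the arms (18.6 of 88.0 Mb), and the flank share of midpoints was 19.9% with glutaraldehyde (95% exact binomial interval 18.8 to 21.0) and 8.40% with formaldehyde (7.43 to 9.46). The difference was 11.5 percentage points (interval 9.98 to 12.9, by Newcombe's method), and the glutaraldehyde share was 2.37 times the formaldehyde share. Per Mb of flank sequence there were 55.8 glutaraldehyde and 13.4 formaldehyde midpoints, against 59.3 and 33.7 per Mb over the whole arms. A ratio of peak share to sequence share of 0.942 therefore stood against 0.398.

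Bodies of protein-coding genes held 66.2% of the glutaraldehyde and 81.5% of the formaldehyde arm peaks, on 65.5% of the sequence. Intergenic sequence beyond 1 kb held 10.3% and 4.89% on 9.96% of the sequence, so the lower formaldehyde share was not limited to the first 1 kb. Pseudogene bodies held 2.05% and 4.15%, and noncoding gene bodies 1.59% and 1.05%.

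**Figure D1:**
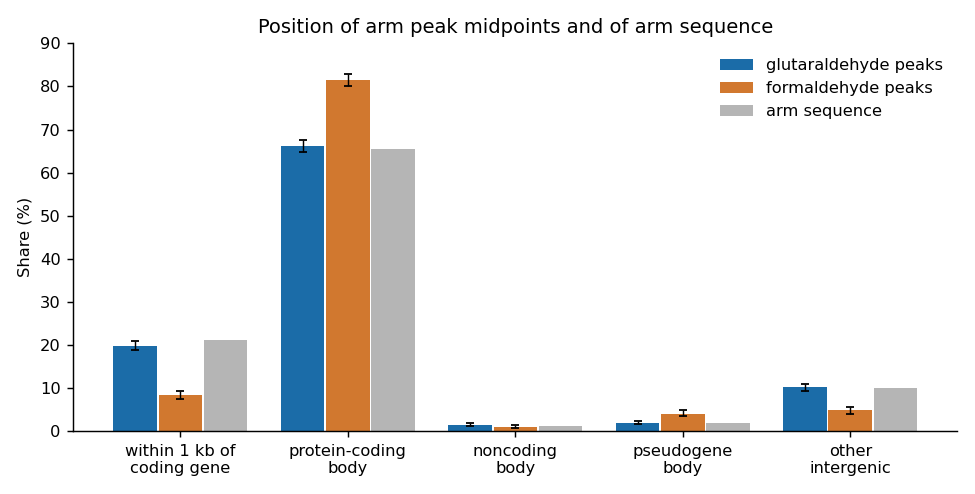
Share of arm peak midpoints (%) in 5 classes of position for glutaraldehyde and formaldehyde peaks, with 95% exact binomial intervals, beside the share of arm sequence in each class. The glutaraldehyde flank bar (19.9%) lies close to the flank share of the sequence (21.1%), and the formaldehyde bar (8.40%) lies below both.

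The flank share was similar on all 5 chromosomes, from 18.4% on chromosome 5 to 22.2% on chromosome 2 with glutaraldehyde and from 7.61% on chromosome 1 to 9.28% on chromosome 4 with formaldehyde. The chromosomes did not overlap between the libraries. Of the 10 chromosome arms, 9 had the higher flank share with glutaraldehyde. The exception was the arm of chromosome 4 left of the interval, which had 8 of 84 glutaraldehyde peaks in flanks (9.52%, interval 4.20 to 17.9) and 8 of 56 formaldehyde peaks (14.3%, 6.38 to 26.2), and these intervals overlap. The lists held 1.76 times as many glutaraldehyde as formaldehyde peaks on the arms and 4.16 times as many in the flanks.

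Within the flanks, glutaraldehyde peaks were spread evenly over the distance from the gene. In 100 bp steps from the gene edge, the density of midpoints ran between 48.1 per Mb (400 to 500 bp, 85 peaks) and 68.2 per Mb (800 to 900 bp, 71 peaks). The exact Poisson intervals of these steps overlapped, at 38.4 to 59.5 and 53.3 to 86.1. The first 100 bp held 197 peaks at 55.6 per Mb. The formaldehyde density ran between 8.55 per Mb (500 to 600 bp, 13 peaks) and 19.7 per Mb (600 to 700 bp, 26 peaks) and was below the glutaraldehyde density in each step. The median distance was 309 bp (interquartile range 136 to 601) for glutaraldehyde and 320 bp (106 to 626) for formaldehyde flank peaks. The first step held 3.54 Mb of sequence and the last 0.924 Mb, so peak counts fell with distance while density did not.

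**Figure D2:**
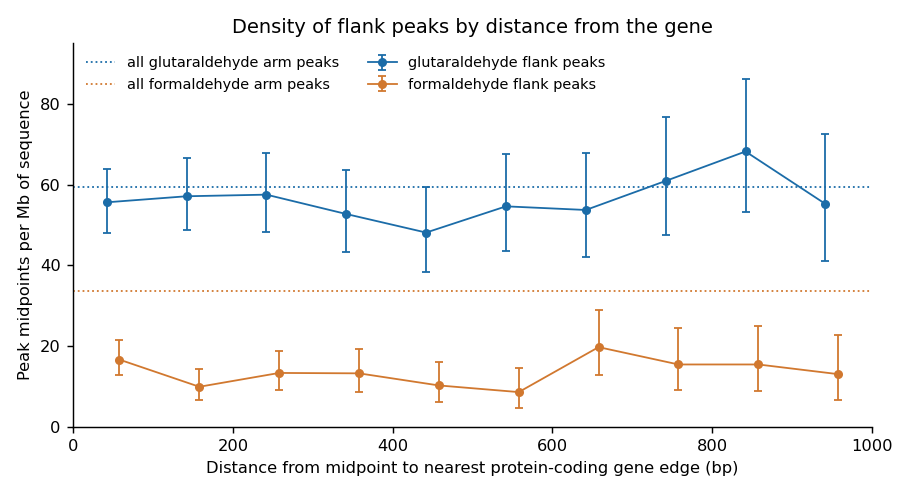
Peak midpoints per Mb of gene-free arm sequence against the distance to the nearest protein-coding gene edge in 100 bp steps, with exact Poisson intervals, and the density over the whole arms as dotted lines. Glutaraldehyde flank peaks stay between 48.1 and 68.2 per Mb, around the arm value of 59.3, and formaldehyde flank peaks between 8.55 and 19.7 per Mb, below the arm value of 33.7.

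Glutaraldehyde flank peaks scored like the other glutaraldehyde arm peaks. Their scores ran from 50 to 360 with a median of 73.2 (interquartile range 59.2 to 97.5), and those of the other 4181 arm peaks had a median of 71.9 (59.2 to 96.3). A score of 100 or more was reached by 239 flank peaks (23.0%, interval 20.5 to 25.7) and by 22.5% of the peaks in protein-coding bodies. Formaldehyde flank peaks scored from 50 to 209 with a median of 67.9 (56.9 to 85.0), where the other formaldehyde arm peaks had a median of 71.4. Of them, 38 (15.3%, 11.0 to 20.3) reached 100, against 22.2% of the formaldehyde peaks in protein-coding bodies. Scores of different libraries depend on depth. A score of 100, or any shared score class below, need not be equally strict in both libraries.

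The flank share of glutaraldehyde peaks hardly moved with the score. It was 19.8% at scores of 50 to 60 and 21.1% at 130 or more, with values between 18.8% and 21.8% in all 6 score classes. The formaldehyde share was 9.83% (7.92 to 12.0) at scores of 50 to 60 and 4.89% (2.76 to 7.93) at 130 or more. Peak width moved with the difference between the libraries. Formaldehyde peaks outside the flanks had a median width of 840 bp and those in flanks 671 bp, where glutaraldehyde peaks had 641 and 618 bp. Below 550 bp the flank share was 21.5% (18.9 to 24.3) with glutaraldehyde and 15.5% (10.3 to 22.1) with formaldehyde, and these intervals overlap. At 600 to 700 bp it was 19.8% (17.6 to 22.1) and 14.0% (11.2 to 17.1), and at 900 bp or more 18.3% and 4.43%. Among peaks of 500 to 1000 bp in both libraries the difference was 9.97 percentage points, but widths within that range were not matched. The part of width in the difference was not tested further.

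**Figure D3:**
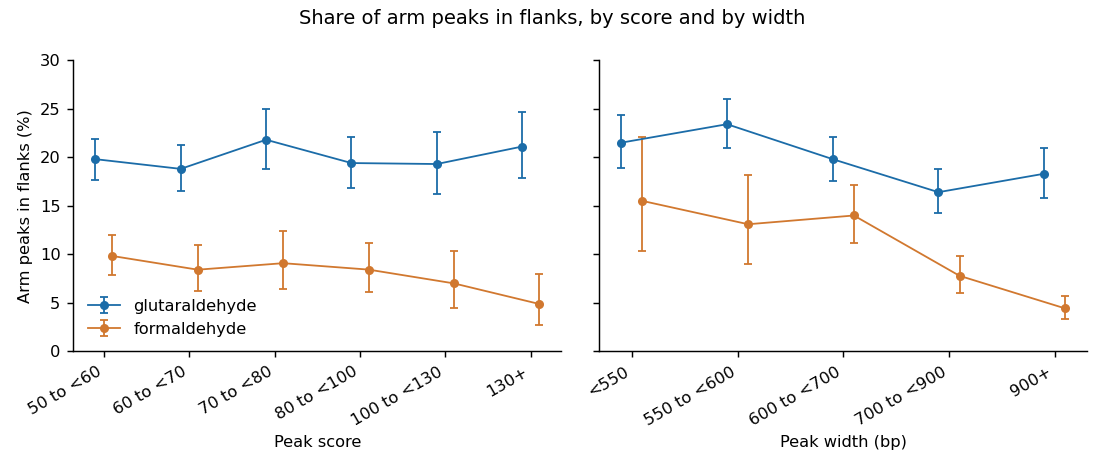
Share of arm peaks in flanks (%) by peak score and by peak width for both libraries, with 95% exact binomial intervals. The glutaraldehyde share lies between 18.8% and 21.8% over the score classes, and the formaldehyde share is 4.43% among peaks of 900 bp or more.

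With glutaraldehyde, the distance from the gene made little difference to the score. The median score was 72.7 for the 421 glutaraldehyde flank peaks within 250 bp of the gene, 71.9 for the 270 at 250 to 500 bp and 75 for the 346 beyond 500 bp. A score of 100 or more was reached by 23.5%, 23.3% and 22.3% of them. Peaks that extended into a coding body were wider and more often above 100, with 27.5% (23.3 to 31.9) of the 437 that reached 1 body and 18.3% (15.0 to 22.0) of the 498 that reached none. With formaldehyde, 21.2% (13.6 to 30.6) of the 99 flank peaks within 250 bp reached 100. At 250 to 500 bp 12.3% (5.47 to 22.8) of 65 did, and beyond 500 bp 10.6% (4.96 to 19.2) of 85. These intervals overlap.

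**Figure D4:**
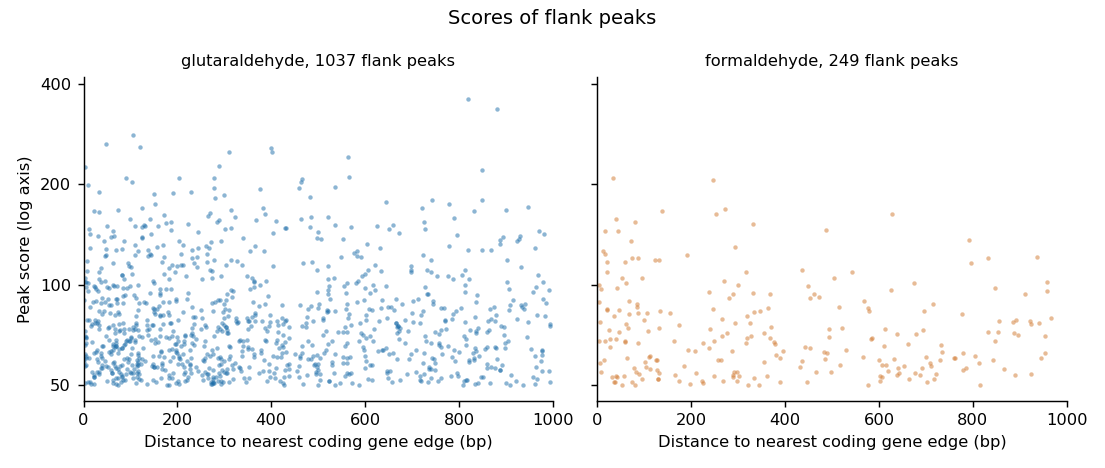
Score (log axis) of every flank peak against the distance of its midpoint from the nearest protein-coding gene edge (bp), glutaraldehyde left and formaldehyde right. Both clouds fill the whole range of distance, and the 2 highest glutaraldehyde scores, 360 and 337, lie beyond 800 bp.

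Many flank peaks were not separate from genes. Of the glutaraldehyde flank peaks, 469 (45.2%) touched no gene body of any kind, 437 (42.1%) reached into 1 protein-coding body and 102 (9.84%) bridged the space between coding bodies, reaching 2 or more. With formaldehyde, 109 (43.8%) touched no body, 102 (41.0%) reached 1 coding body and 32 (12.9%) reached 2 or more. A single protein-coding gene lay within 1 kb of 665 glutaraldehyde flank peaks (64.1%), 2 genes of 357 (34.4%) and 3 or more of 15 (1.45%). The space between neighbouring coding genes that held a glutaraldehyde flank peak had a median length of 1964 bp, against 2092 bp for formaldehyde.

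Short and long spaces held glutaraldehyde flank peaks in proportion to their flank sequence. Spaces of up to 500 bp had 89 peaks (8.58%) on 8.49% of the flank sequence, and spaces over 4000 bp had 197 (19.0%) on 18.3%. The density ran from 53.9 to 59.1 per Mb over 5 classes of length. For formaldehyde it ran from 11.3 to 16.5 per Mb.

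Some flank peaks also lay near genes of other kinds. The share of flank sequence near each kind was not counted, so the shares below do not measure closeness to such genes. A long noncoding RNA gene lay within 1 kb of 84 glutaraldehyde flank peaks (8.10%) and of 28 formaldehyde flank peaks (11.2%). A tRNA gene was within 1 kb of 18 (1.74%) and 2 (0.803%), a microRNA gene of 10 (0.964%) and 0, and a pseudogene of 39 (3.76%) and 16 (6.43%). The 0 of 249 formaldehyde flank peaks near a microRNA gene allows a share of up to 1.47% by the exact interval, which includes the glutaraldehyde share.

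The glutaraldehyde flank peaks lay within 1 kb of 1386 of the 24061 protein-coding genes on the arms (5.76%), and the formaldehyde flank peaks within 1 kb of 344 (1.43%). Of the 1386 genes, 1349 had 1 flank peak, 36 had 2 and 1 had 3. The gene with 3, AT1G69990, was picked out after its values were seen. Its peaks on chromosome 1 ran from 26359947 to 26360355, from 26361879 to 26362462 and from 26362606 to 26363178, with scores of 97.7, 86.3 and 74.0. Their midpoints lay 84.0, 160 and 882 bp from AT1G69990, and the third was closer to AT1G70000, at 87.0 bp. A glutaraldehyde midpoint in the gene body itself was present in 168 of the 1386 genes (12.1%, interval 10.4 to 14.0), close to the 13.6% of all arm genes. The median length of the 1386 genes was 2032 bp and that of all arm genes 2120 bp.

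The 20 highest scoring glutaraldehyde flank peaks had scores from 199 to 360 and ranks from 5 to 127 among the 6306 peaks. Of these, 6 touched no coding body, 8 had 2 or more coding genes within 1 kb, and 2 overlapped a formaldehyde peak. The highest lay on chromosome 5 from 7256314 to 7257636, with its midpoint 819 bp from AT5G21950 and a score of 360 (rank 5). The next lay on chromosome 2 from 7889387 to 7890131, 881 bp from AT2G18140, with a score of 337 (rank 8). Both stood free of coding bodies.

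The next peaks of this order lay between closely spaced genes. The third, with a score of 281, spanned 20536453 to 20538188 on chromosome 5 across a space of 287 bp between MEMB12, a SNARE protein of the Golgi, and UBC33, a ubiquitin-conjugating enzyme. Of its length, 83.5% lay in coding bodies. The fourth, with a score of 264, spanned 14320918 to 14322327 on chromosome 4 across 231 bp between emb2726, a gene with an embryo defective mutant, and AT4G29070. The peak at 199 did the same at AT1G26750 and AT1G26740 on chromosome 1, from 9246056 to 9247640, with 87.1% of its length in coding bodies. In these cases the midpoint rule takes a peak that covers mostly gene bodies.

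Several of the 20 lay beside genes with known roles in metabolism and growth. GMII, the Golgi mannosidase that trims N-glycans, had a peak with a score of 242 on chromosome 5 from 4835872 to 4837141, 564 bp away. SBPASE, an enzyme of the Calvin cycle, had one with a score of 226 on chromosome 3 from 20708131 to 20709193, 632 bp away and 4 bp from AT3G55790. GSL04, of the callose synthase family, had one with a score of 221 on chromosome 3 from 4891079 to 4892043, 849 bp away. RR19, a response regulator of the type used in cytokinin signalling, had one with a score of 209 on chromosome 1 from 18190677 to 18191300, 278 bp away. AT4G13790, which the gene table also names SAUR25, of the auxin-induced SAUR family, had one with a score of 251 on chromosome 4 from 7999819 to 8001547. AT1G76670, a nucleotide sugar transporter gene also named URGT1, lay 920 bp from a peak with a score of 204, which was nearer to AT1G76660.

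The others of the 20 lay beside genes that the table gives by locus. AT2G36410 had a score of 259, AT2G37810 258, AT3G26860 250, AT3G51670 227, AT1G11160 211 and AT5G01210 209. The peak between AT5G42955 and AT5G42950 scored 209, that near AT2G18900 and AT2G18890 scored 208, and that near AT5G50120 and AT5G50115 scored 203. Their midpoints lay between 90.5 bp (AT5G01210) and 566 bp (AT1G11160) from the nearest coding gene.

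Of 105 genes of ABA, gibberellin, light signalling and seed maturation, 98 lie on the arms, and 9 of these (9.18%) had a glutaraldehyde flank peak within 1 kb, against 5.76% of all arm genes. A formaldehyde flank peak was present at 2 (2.04%), against 1.43%. These genes have 1478 bp of flank sequence per gene. The value for all arm genes, 772 bp, counts sequence shared by neighbouring genes once and is not a like measure. Per Mb of flank sequence the listed genes had 62.2 glutaraldehyde flank peaks (interval 28.4 to 118), against 55.8 for all arm genes. With formaldehyde they had 13.8 (1.67 to 49.9), against 13.4. In these lists 0 to 3 genes were involved, so no single list can be read by itself.

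None of the 11 genes of ABA synthesis had a flank peak in either library, and 1 of the 11 held a glutaraldehyde midpoint in the body. Of the 4 ABA catabolism genes, which encode cytochrome P450 enzymes that inactivate ABA, CYP707A4 had a glutaraldehyde flank peak. It scored 170 (rank 250) on chromosome 3 from 6673064 to 6674064, with its midpoint 125 bp from the gene, and the body held a further glutaraldehyde midpoint. CYP707A1 had a formaldehyde flank peak with a score of 59.5 on chromosome 4 from 10523909 to 10524524. Among 26 genes of ABA perception and signalling, the receptor gene PYL6 had a glutaraldehyde flank peak with a score of 63.8 on chromosome 2 from 16846527 to 16847133, and the receptor gene PYL11 a formaldehyde flank peak with a score of 53.3 on chromosome 5 from 18604981 to 18605579.

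Of 16 arm genes of gibberellin metabolism, GA2OX6 and GA2OX8, which encode enzymes that inactivate gibberellin, had glutaraldehyde flank peaks. That of GA2OX6 scored 89.0 on chromosome 1 from 489256 to 490400, 177 bp from the gene and 46 bp from AT1G02405, and overlapped a formaldehyde peak by 222 bp whose own midpoint lay in a coding body. That of GA2OX8 scored 51.9 on chromosome 4 from 11302244 to 11302825, 148 bp away. None of the 8 arm genes of gibberellin signalling had a flank peak. Among 24 arm genes of light signalling, SPA1, which acts with COP1 to repress light responses, had a glutaraldehyde flank peak with a score of 106 on chromosome 2 from 19021541 to 19022332. PHYD, a phytochrome gene, had one with a score of 77.8 on chromosome 4 from 9194037 to 9194732, 862 bp away. None of these 24 genes had a formaldehyde flank peak, which allows up to 132 per Mb, against 13.4 for all arm genes.

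Among 9 genes of seed dormancy and maturation, 3 had a glutaraldehyde flank peak and 0 a formaldehyde flank peak. Per Mb of flank sequence this was 208 with glutaraldehyde (interval 42.8 to 607), which includes the 55.8 of all arm genes. The 0 with formaldehyde allows up to 255 per Mb, which includes the 13.4 of all arm genes. LEC1 and LEC2 encode transcription factors of embryo maturation. The peak of LEC1 scored 74.9 on chromosome 1 from 7726408 to 7726977, 884 bp away and 106 bp from AT1G21960, and that of LEC2 scored 67.7 on chromosome 1 from 9896127 to 9896649, 479 bp away. SOM encodes a zinc finger protein that represses germination in the dark and is a target of the phytochrome-interacting factor PIF1. Its peak scored 66.8 on chromosome 1 from 953257 to 953843, 740 bp away. The peak of LEC1 was just above the median score of flank peaks (73.2) and the other 2 were below it. None of the 3 overlapped a formaldehyde peak, as 4.92% of all glutaraldehyde flank peaks did.

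Transcription factor families, taken by the symbols of the gene table, differed in how many genes had a glutaraldehyde flank peak. Genes with wide spaces around them have more flank sequence, so each family is also given per Mb of its own flank sequence, beside 55.8 per Mb for all arm genes. Of 64 WRKY genes, which bind the W-box, 11 had a flank peak (17.2%), or 114 per Mb with an exact Poisson interval of 57.0 to 204, and 0 had a formaldehyde flank peak. The highest were WRKY15 (score 180, chromosome 2 from 9926793 to 9927729), WRKY41, a regulator of seed dormancy (153, chromosome 4 from 6758442 to 6759403), WRKY4 (129, chromosome 1 from 4775259 to 4775876), WRKY18 (117, chromosome 4 from 15382005 to 15383022) and WRKY58 (108, chromosome 3 from 27328 to 28315). The peaks of WRKY15, WRKY4 and WRKY58 lay closer to another coding gene, 743 bp from AT2G23321, 632 bp from ELF5A-1 and 104 bp from AT3G01085. None of the 11 overlapped a formaldehyde peak, as 4.92% of all glutaraldehyde flank peaks did. None of these 11 genes held a glutaraldehyde midpoint in the body, as 12.1% of all genes with such a flank peak did. With only 11 peaks, these absences do not set WRKY genes apart. Of the 64 WRKY genes, 12 held a glutaraldehyde midpoint in the body.

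MYB genes had flank peaks at 10 of 104 genes (58.8 per Mb). The highest were MYB69 (score 114), MYB305 (84.0), MYB50 (78.6), MYB102 (77.1) and MYB87 (74.5). NAC genes had them at 6 of 66 (66.3 per Mb), with NAC019, a stress-response factor, at 98.8, then NAC2 (76.3), NAC095 (69.0), NAC075 (61.4) and NAC101 (54.3). ERF genes of the ethylene response had them at 3 of 22 (83.2 per Mb), ERF13 (88.3), ERF2 (77.3) and ERF3 (62.3). One of the 13 arm genes whose symbol is bHLH with a number did (70.7 per Mb), BHLH32 (57.5). Of the 25 arm genes whose symbol is bZIP with a number, 0 did, which allows up to 114 per Mb. Both counts are of the symbol and not of the family. For bZIP, GBF6, which the table also names BZIP11, had 2 glutaraldehyde flank peaks, with scores of 65.4 and 55.5. A gene whose symbol is bZIP without a number also had a flank peak, with a score of 64.9. Other genes of these families under other symbols were not counted.

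Auxin response genes were among those with flank peaks. SAUR genes had them at 4 of the 15 arm genes that carry this symbol in the table (26.7%, 222 per Mb, interval 60.4 to 567), namely SAUR29 (150), SAUR68 (121), SAUR36 (57.4) and SAUR19 (56.9). Except at SAUR36, these peaks were closer to another coding gene, 158 bp from AT3G03826, 172 bp from AT1G29500 and 150 bp from VDD. The count is of the symbol, and genes given by locus, including AT3G03826 and AT1G29500, were not sorted by family. The count leaves out, for example, AT4G13790 (251) and AT1G75590 (51.0), also named SAUR25 and SAUR52, which had flank peaks too. IAA and ARF genes, the auxin response repressors and factors, had them at 3 of 36 (57.6 per Mb), IAA13 (78.3), IAA29 (68.0) and ARF18 (67.5). Of the 22 lists and families, the intervals of WRKY and SAUR lay above 55.8 per Mb and those of the other 20 included it. These intervals were not adjusted for the number of lists, and no list was tested.

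Families of enzymes, transporters and structural proteins, again by symbol, ran from 27.8 per Mb to 212 per Mb, and each of their intervals included 55.8. Cytochrome P450 genes had a flank peak at 9 of 208 (33.9 per Mb), of which CYP707A4 (170), CYP71B12 (119), CYP71A23 and CYP71A22, which share 1 peak (74.2), and CYP706A1 (72.9) were highest. UGT glycosyltransferases had one at 4 of 52 (77.2 per Mb), UGT74F1, which glucosylates salicylic acid, at 158, then UGT72E2 (88.1), UGT71C1 (72.5) and UGT88A1 (67.0). ABC transporters had one at 10 of 110 (80 per Mb, interval 36.6 to 152), led by ABCG18 (149), ABCG14, which exports cytokinin (127), ABCG19 (117), ABCB28 (114) and ABCC1 (110). Symbols beginning with RPL or RPS gave 4 of 37 (167 per Mb), RPS6 (138), which here is a disease resistance gene, RPL23AB (102), RPL18AA (54.1) and RPS9 (52.0). Cell wall EXP and XTH genes gave 2 of 50 (27.8 per Mb), XTH18 (129) and EXPA11 (50.4), and antenna LHC genes 2 of 12 (212 per Mb), LHCA2 (98.4) and LHCB6 (51.5). Other coding genes were closer to the peaks of UGT88A1, RPL23AB, RPL18AA, EXPA11 and LHCB6, as they were to those of NAC095 and ARF18.

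In formaldehyde, flank peaks were present at 3 MYB, 1 NAC, 6 cytochrome P450, 2 ABC transporter, 1 RPS and 1 expansin genes and at 0 genes with the symbols of the other families described above. All arm genes had them at 1.43%, or 13.4 per Mb of flank sequence, which the interval of each family included. The 6 cytochrome P450 genes were of 208 (21.2 per Mb, interval 6.88 to 49.5). Counts of 0 allowed from 38.3 per Mb (WRKY) up to 392 per Mb (LHC), so they set no family apart. Antenna genes under another symbol, CAB2 and CAB3, shared a formaldehyde flank peak. Both genes were named after their values were seen, as were GBF6 and the gene with the symbol bZIP. The genes were MYB59 (96.0), MYB50 (94.6), MYB62 (82.5), NAC067 (59.8), CYP705A30 (71.6), CYP707A1 (59.5), CYP76C2 and CYP76C3 with a shared peak (54.7), CYP705A4 (53.8), ABCG21 (102), ABCE3 (53.4), RPS4 (69.2) and EXPA8 (81.9), with CYP98A3 (51.2) the sixth cytochrome P450 gene. RPS4, like RPS6 above, is a disease resistance gene. MYB50 was the gene of these families with a flank peak in both libraries, from 21317911 to 21318488 with glutaraldehyde and from 21316041 to 21316756 with formaldehyde on chromosome 1, which do not overlap each other. The glutaraldehyde peak of MYB50 did overlap another formaldehyde peak by 153 bp, one with its midpoint in a coding body.

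**Figure D5:**
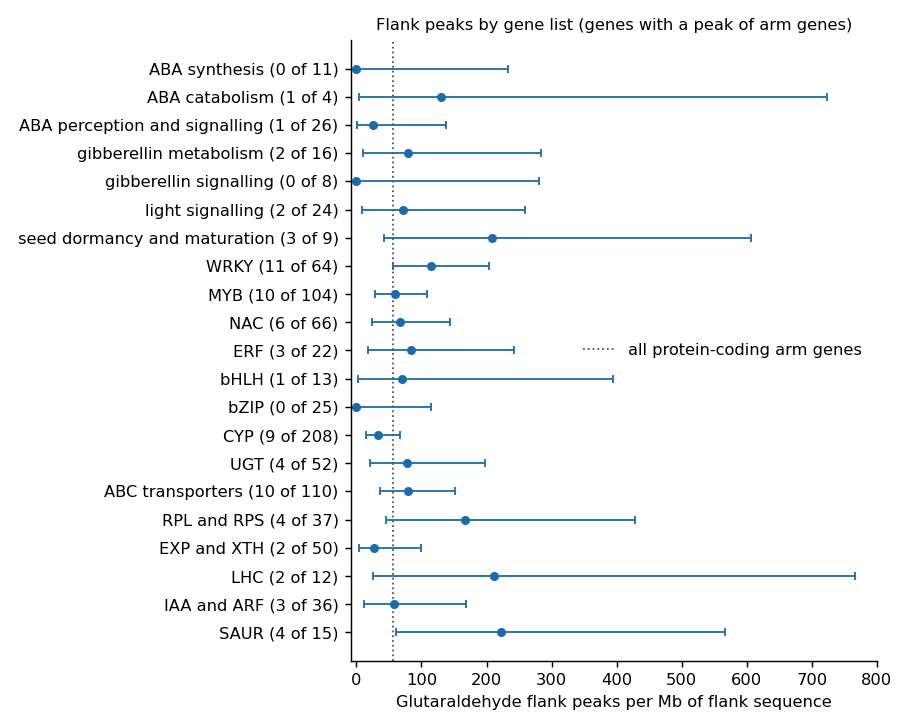
Glutaraldehyde flank peaks per Mb of flank sequence for 21 gene lists and families, with exact Poisson intervals and the value of all protein-coding arm genes (55.8) as a dotted line. The number of genes with a flank peak and of arm genes stands beside each name, and only the WRKY and SAUR intervals lie above the line.

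Few glutaraldehyde flank peaks met a formaldehyde peak. By an overlap of at least 1 bp, 51 of the 1037 did (4.92%, interval 3.68 to 6.42), against 6.0% of all glutaraldehyde arm peaks and 6.60% of those in protein-coding bodies. Of the formaldehyde partners, 26 were themselves flank peaks, 24 had their midpoint in a protein-coding body and 2 in a pseudogene body. The 26 pairs of flank peaks are 2.51% of the glutaraldehyde and 10.4% of the formaldehyde flank peaks. A glutaraldehyde peak of any class was met by 36 of the 249 formaldehyde flank peaks (14.5%, 10.3 to 19.4). The share over all formaldehyde arm peaks was not counted. The 51 had a median score of 78.6 and the other 986 one of 72.9. Of the 239 with a score of 100 or more, 18 overlapped a formaldehyde peak of any score. The matching share of all glutaraldehyde arm peaks with such scores was not counted, so the 18 cannot be called many or few.

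At the level of genes, 45 arm genes had a flank peak in both libraries, 3.25% of the glutaraldehyde and 13.1% of the formaldehyde genes. Their peaks need not overlap, and a gene has 2 sides. Of all arm genes, 1.43% had a formaldehyde flank peak and 5.76% a glutaraldehyde one, and these shares were not tested against each other.

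The pair of flank peaks that ranked best in both libraries, and the only pair with both scores at 100 or more, lay 482 bp from AT5G52070. Its glutaraldehyde peak spanned 21165550 to 21166543 on chromosome 5 with a score of 149, and its formaldehyde peak spanned 21165906 to 21166890 with a score of 120. The second lay on chromosome 1 beside SRX, which encodes sulfiredoxin, an enzyme that repairs overoxidised peroxiredoxin. Its peaks spanned 11132164 to 11133174 (119) with glutaraldehyde and 11132152 to 11132846 (94.2) with formaldehyde. The third, on chromosome 2, lay 594 bp from PMDH1, the peroxisomal malate dehydrogenase that serves the breakdown of seed oil, from 9688331 to 9689070 (106) with glutaraldehyde and from 9688421 to 9689018 (85.0) with formaldehyde.

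Among the next pairs, the highest glutaraldehyde flank peak, near AT5G21950, met a formaldehyde peak (7256730 to 7257352) that scored 77.3, rank 2097 of 4557. LOG6, of the cytokinin-activating LONELY GUY family, had scores of 80.2 and 71.3 with an overlap of 106 bp, and EXT12, a cell wall extensin, 124 and 67.0 with an overlap of 660 bp. The pairs at AT1G50110 and AT1G50120 (121 with glutaraldehyde and 83.3 with formaldehyde), AT1G12180 (188 and 78.0), AT5G25415 and AT5G25410 (86.0 and 70.2) and AT1G66855 (170 and 66.4) complete the 10 best. Overlaps of these 10 ran from 106 bp (LOG6) to 683 bp (SRX).

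Glutaraldehyde flank peaks lay closer to the next peak of their own library, whose list is the longer one. Another glutaraldehyde peak began within 1000 bp of 147 (14.2%), with a median gap of 5442 bp, and another formaldehyde peak within 1000 bp of 22 formaldehyde flank peaks (8.84%), with a median gap of 10209 bp.

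The highest formaldehyde flank peaks lay at other genes. LBD31, of the LOB domain transcription factors, had a score of 209 on chromosome 4 (86319 to 87888), rank 164 of 4557, followed by AT1G27580 (206), AT4G15715 (169) and Cpn60beta3, a chaperonin subunit gene (166).

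At the limit of the rule, the members farthest from a gene lay 995 bp from NAC2 (score 76.3), 994 bp from AT1G75590 (51.0) and 994 bp from AT4G37030 (75.4). The arm peaks just outside lay 1002 bp from AT5G47160 (61.9), 1003 bp from AT1G31163 (60.9) and 1003 bp from AT3G47610 (116). At the border of the pericentromeric intervals, the nearest member lay 5392 bp outside on chromosome 2 (1094063 to 1095153, score 116). The nearest glutaraldehyde peak that met the rule but for the interval lay 2348 bp inside, on chromosome 2 (7197345 to 7197959, score 75.6), and 179 such peaks lay inside the intervals.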

How the data were processed

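The data are 2 peak lists, 1 for each cross-linker, with chromosome, start, end and a score for each peak, as the authors deposited them. The assembly TAIR10 and the tools Bowtie2 (version 2.1.0) and MACS (version 1.4.2) are listed, per the submitters' processing notes. What served as control in peak calling, and how repeated or multiply placed reads were handled, was not given in the sources used here. Samples were grouped by the fixative in their descriptions.

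Genes were placed with RefSeq's table of TAIR10.1, whose nuclear coordinates are, from background knowledge, those of TAIR10. Its gene coordinates are not printed. Printed coordinates are those of the peaks, counted from 1. The table has no strand and no sequence, so the planned comparison of upstream and downstream sides and of promoter motifs was not run, and no sequences are shown. A peak was placed by its midpoint, and any annotated body excluded it from the flanks. Sequence per class was counted base by base over 88.0 Mb of arms. The placing of peaks was tested on 1000 simulated peaks, of which 1000 were recovered. Intervals are 95% exact binomial (Clopper-Pearson) or exact Poisson. No test was run, because each cross-linker has 1 library. Python 3.11.15 with numpy 2.4.6, pandas 2.3.3 and scipy 1.17.1 was used.

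The members, lists and families were chosen with earlier results of these data known. The genes named are those within 1 kb of the 20 highest members, up to 5 by score of each list with a member, the 10 best ranked pairs of flank peaks, the highest formaldehyde flank peaks and the 3 peaks on each side of the 1 kb limit. One of the 22 lists and families, and 1 of the 5 highest formaldehyde flank peaks, are not reported here. Formaldehyde flank peaks of the families were added after the data were seen. Of 105 listed genes, 92 matched the table by symbol and 13 by synonym or by a locus set from prior knowledge. Alternatives were a score of 100 or more, the 1000 highest peaks, flanks of 500 bp and 2 kb, whole peaks outside gene bodies, intervals wider by 1 Mb, protein-coding bodies alone, widths of 500 to 1000 bp and 50% reciprocal overlap.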

Additional observations from a re-analysis of the deposited data

How the results depend on the processing

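In each of the 8 alternatives the flank share stayed higher with glutaraldehyde. The difference of 11.5 percentage points moved to 14.2 at a score of 100 or more, 14.9 among the 1000 highest peaks and 14.9 with flanks of 2 kb. It moved to 7.71 with flanks of 500 bp, 5.31 for whole peaks outside gene bodies and 9.97 for peaks of 500 to 1000 bp, and kept within its interval in the others. The glutaraldehyde share (19.9%) became 13.2% with flanks of 500 bp, 26.3% with 2 kb, 8.99% for whole peaks and 21.4% with protein-coding bodies alone. The formaldehyde share (8.40%) became 5.53%, 11.4%, 3.68% and 10.1% in the same order, 5.98% at a score of 100 or more, 5.65% among the 1000 highest and 9.97% for peaks of 500 to 1000 bp. The number of glutaraldehyde flank peaks (1037) was 239, 169, 691 and 469 under a score of 100, the 1000 highest, 500 bp and whole peaks, by fewer peaks or less sequence. The number of genes with a glutaraldehyde flank peak (1386) was 321, 232, 841 and 562 under the same settings and 2175 with 2 kb. The overlap with formaldehyde peaks (4.92%) was 0.837% when both libraries were held to a score of 100, 1.18% among the 1000 highest and 1.93% with 50% reciprocal overlap. Depth is unknown, so a score of 100 need not be equally strict in both libraries.

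The upstream share and promoter motifs were not run, as the gene table has no strand or sequence. The lists give no read depth, so absence of a peak is no measure of absent signal. No paired analysis was possible because the cross-linkers have 1 library each and no test was run.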
